A study of Caenorhabditis elegans with 83 samples.

Results

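The sites described here are stretches of gene bodies where the cohesin subunit SMC-3 and the cohesin loader PQN-85 were both called in control worms, away from any gene's 5′ end. Their members were chosen by peak calls: an SMC-3 peak of the auxin-treated control under 2000 bp wide, overlapped by a control PQN-85 peak, with its summit over 500 bp from every gene 5′ end and inside at least 1 gene. Of 6290 control SMC-3 peaks, 826 met the rule (13.1%), in 597 genes, and 9 of them lay in 2 overlapping genes. Of the 3566 narrow peaks with loader, 1371 lay within 500 bp of a 5′ end (promoter sites) and 1369 lay farther out and in no gene (distal intergenic sites), and these serve as comparison. The control SMC-3 and PQN-85 values selected the sites, so they are given as description only.

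Cohesin is a ring-shaped complex, built around SMC-1 and SMC-3, that holds and extrudes DNA loops. The loader, formed by PQN-85 (the worm NIPBL-type protein, also named SCC-2) and MAU-2, puts the ring on chromatin and stimulates its movement. WAPL-1 takes it off again. Loading is often seen at active promoters and enhancers, whereas inside genes a moving ring can meet transcribing polymerase.

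The samples were whole Caenorhabditis elegans at the L2/L3 stage, grown for 24 h at 22 °C from starved L1 larvae. Auxin, which triggers breakdown of a degron-tagged protein, was given at 1 mM where the labels state a dose, to controls as well. ChIP-seq was done after 1 h of auxin in strain CA1200 (the control), strain JK05 (SMC-3 depletion) and strain JK06 (WAPL-1 depletion), and in strain HW04 with 1 h of auxin or none. RNA-seq was done after 4 h of auxin in CA1200, JK05 and JK06, with 2 libraries each. The labels give strain names without genotypes, so the alleles, the promoter behind the auxin receptor and the degron target of HW04 are not given in the sources used here. No sample of CA1200, JK05 or JK06 without auxin enters a comparison, so depletion and other differences between these strains cannot be told apart. Defining genes of muscle, intestine, neurons, epidermis, pharynx and germline were all present in the RNA, from 36.8 mean normalized counts for the meiotic gene him-3 to 164060 for the muscle myosin gene unc-54.

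Peaks came as 1 combined list per antibody for CA1200, JK05 and JK06, made by the authors over replicate libraries, so shares in them have no replicate error. Lists of single libraries existed for SMC-3 in JK06 (libraries 3 and 4, which also feed the combined list) and for SMC-3, PQN-85 and the histone mark H4K20me1 in HW04 (2 libraries with and 2 without auxin). Read numbers are not in the files and depth is unknown. In each of the 4 HW04 lists for SMC-3, the names of the peaks contradict the label on whether auxin was given, and in none of the HW04 lists for PQN-85 or H4K20me1 do they. HW04 SMC-3 libraries are therefore named by their labels, and under the peak names the labels auxin and no auxin trade places in every HW04 SMC-3 value. Nothing in the labels says that the libraries of a group came from separate cultures, so p-values measure only the spread between these libraries. Coordinates are those of ce10, the build that the labels state for the control SMC-3 samples.

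In the control, the sites ranged from faint to among the tallest narrow SMC-3 peaks. The authors' score, which is 10 times the −log10 q of a peak, had a median of 235 and ran from 39 to 2015. The fold enrichment at the summit, as the peak caller wrote it, had a median of 2.51 and a highest value of 6.83. Promoter sites had a higher median score (337) and were narrower (median 533 bp against 666 bp for gene body sites). The median gap between SMC-3 and PQN-85 summits was 39 bp, and in 79.1% of sites they lay within 100 bp of each other. The rule requires the peaks to overlap, which favours a small gap. At promoter sites the median gap was 20 bp and at distal intergenic sites 36 bp. In the direction of transcription, the PQN-85 summit lay downstream of the SMC-3 summit in 374 sites and upstream in 448, with a median offset of −4 bp. The SMC-3 peak was the wider of the pair in 557 of 826 sites, with a median width ratio of 1.12.

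The 10 highest-scoring sites lay in genes of varied function. The site in nep-25, which encodes a neprilysin-type peptidase, had the top score of 2015 (chromosome II, 5844405 to 5845317, 2585 bp from the 5′ end of a gene of 2779 bp). In W05B2.7 the site scored 1991 (chromosome III, 10989230 to 10990024). In pals-26, a member of the pals family, it scored 1754 (chromosome III, 4378435 to 4379428), also close to the gene's 3′ end at 94.7% of its length. The site in unc-44, the neuronal ankyrin gene, scored 1724 (chromosome IV, 5966850 to 5967831) and lay only 507 bp inside a gene of 38205 bp, so it met the distance limit narrowly. The remaining scores were 1675 in klp-6 (a kinesin of ciliated neurons), 1601 in frm-7 (a FERM-domain protein), 1556 in him-4 (the matrix protein hemicentin), 1445 in haf-9 (an ABC transporter of gut granules), 1378 in pqn-41 (a glutamine/asparagine-rich protein) and 1356 in mef-2 (a MADS-box transcription factor). The loader score varied among these: the PQN-85 score was 2908 in pqn-41 and 2282 in mef-2 but 574 in unc-44 and 652 in haf-9. Each of these values lay in the top quartile of members by PQN-85 score (520 and above).

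The sites were spread over all 6 chromosomes and concentrated in long genes. They numbered 153 on chromosome IV, 147 on III, 138 each on II and X, 134 on I and 116 on V. Per megabase that could hold a site (inside a gene and over 500 bp from every 5′ end, 48.6 Mb in all), the density was 17 overall and ran from 12.9 on chromosome V to 19 on IV, with 17.9 on X. Host genes had a median length of 7698 bp, against 2169 bp over all 18128 genes, and 59 of the 164 genes of 20 kb or longer were hosts (36%). Density rose with gene length even after allowing for the available bases, counted in site-gene pairs (a site in 2 genes counts for each). It was 4.57 pairs per Mb in genes under 2 kb, 9.64 at 2 to 5 kb, 19.9 at 5 to 10 kb, 27.1 at 10 to 20 kb and 28.2 at 20 kb or longer. Of the hosts, 578 are annotated as protein-coding in RefSeq. The mean normalized RNA count per kilobase of gene span had a median of 126 in hosts and 56.6 over all genes.

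Pooled over genes of all lengths, the sites leaned towards the 5′ side of their genes. With genes cut into 5 equal stretches, the first stretch held 16% of site-gene pairs against 10.4% of the available bases, the second 29.2% against 20.8%, the third 23.2% against 23.1%, the fourth 19.6% against 23.4% and the last 11.9% against 22.4%. The exact 95% interval for the last stretch was 9.74% to 14.2%, which covers counting error only, as do all intervals over sites given here. Within 1000 bp of the 3′ end, density was 6.50 and 6.21 pairs per Mb in the nearer and farther 500 bp, against 32.1 at over 5000 bp from it. Only longer genes have bases over 5000 bp from their 3′ end. The rule also takes most of the first stretch away from short genes. Density rose with gene length, so position and length are not separated here, and the part of length was not tested. Of the 826 sites, 352 (42.6%) had a control SMC-3 peak at the 5′ end of their own host gene as well, and 281 (34%) a PQN-85 peak there.

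**Figure D1:**
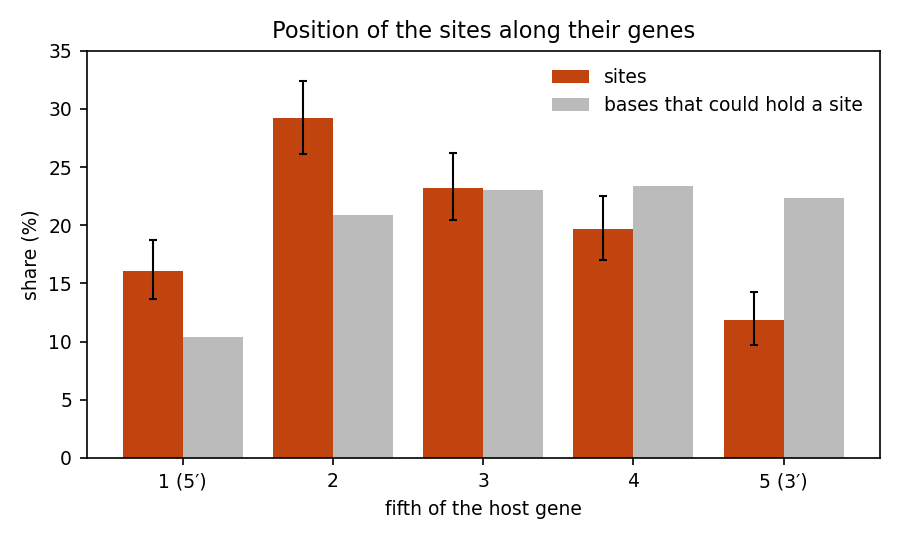
Share of site-gene pairs (red, with exact 95% intervals over pairs) and of the gene bases that could hold a site (grey) in each of 5 equal stretches of the host gene, from 5′ to 3′. The second holds 29.2% of pairs on 20.8% of the bases, and the last 11.9% on 22.4%. Genes of all lengths are pooled, so position is not separated from gene length.

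Several hosts held a row of sites. Of 597 host genes, 453 held 1 site, 90 held 2 and 54 held 3 or more. The kinase gene mbk-2 (26813 bp, chromosome IV) held 7 between 4330 and 21010 bp from its 5′ end, with scores from 45 to 799. The FOXO transcription factor gene daf-16 (26363 bp, chromosome I) also held 7, with scores from 81 to 639. Next came kin-1 (protein kinase A catalytic subunit), fkh-7 (a forkhead factor) and unc-43 (CaM kinase II) with 6 each, and nhr-40 (a nuclear hormone receptor), mpz-1 (a multi-PDZ scaffold) and fkh-9 (a forkhead factor) with 5 each. These 8 genes thus encode 3 kinases, 4 transcription factors and a scaffold.

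**Figure D2:**
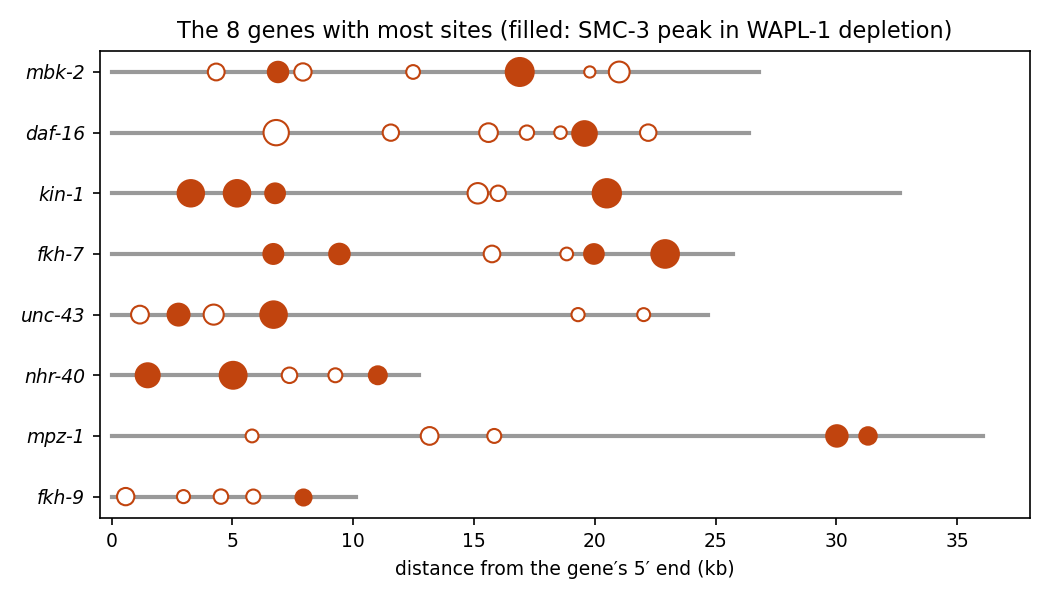
Positions of gene body sites along the 8 genes that hold most of them, in kb from the gene's 5′ end (grey line: the gene; circle area grows with control SMC-3 score). Filled circles had an SMC-3 peak in WAPL-1 depletion, as 2 of 7 did in mbk-2 and 1 of 7 in daf-16, and open circles did not.

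Hosts were counted in lists of genes by function, which were chosen with earlier results of these data known. Among genes for small GTPase regulators and kinases, 10 of 35 were hosts (28.6%), including max-2 with a site score of 1324 and mpk-1, the ERK-type kinase, with 1131. Of genes that time development and moulting, 8 of 24 were hosts, led by myrf-2 (score 1313), lin-28 (354) and the Argonaute gene alg-1 (311). Wnt and Notch pathway genes gave 6 of 37 hosts, with egl-27 at 654, lag-1 (the Notch pathway's DNA-binding factor) at 572 and sel-8 (a Notch coactivator) at 553. Axon guidance and adhesion genes gave 10 of 61, among them unc-44, sax-7 (an L1-type adhesion molecule, score 972) and unc-33 (a CRMP-type protein, score 645).

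Muscle sarcomere genes gave 6 of 43 hosts (lev-11, the tropomyosin gene, at 526), matrix genes 3 of 25 (him-4) and ion channel genes 10 of 104 (the potassium channel gene twk-5 at 945). Nuclear hormone receptor genes gave 14 of 256 hosts, homeodomain genes 5 of 88, neurotransmitter receptor genes 4 of 118, basic helix-loop-helix genes 1 of 30 (hlh-30) and collagen genes 2 of 172. None of 75 ribosomal protein genes and none of 12 cohesin genes was a host. Over all genes the share was 3.29%. Length went only partly along with these shares. The median was 9596 bp for the kinase list and 8834 bp for the axon list but 1198 bp for collagens and 887 bp for ribosomal protein genes. Timing genes had the highest share (33.3%) at a median of 5963.5 bp, and Wnt and Notch genes 16.2% at 4522 bp. Matrix genes had 12% at 8923 bp and neurotransmitter receptors 3.39% at 4099 bp. Per available megabase the kinase list held 59.3 site-gene pairs, Wnt and Notch genes 52.4, timing genes 45, axon genes 31.8 and nuclear hormone receptors 30.5, against 16.7 for all genes. Basic helix-loop-helix genes reached 52.2, from 3 sites in hlh-30 alone. Sarcomere genes (19.2), homeodomain genes (18.7), ion channels (15.4) and collagens (12.9) were nearer to that figure, and matrix genes (9.96) and neurotransmitter receptors (8.78) below it. Of the sites in these lists, an SMC-3 peak was called in WAPL-1 depletion at 12 of 25 in the kinase list, 8 of 23 in the axon list and 7 of 23 in the nuclear hormone receptor list. No test was made of these shares or densities. Density itself rose with gene length over all genes, and the part of length in the densities of the lists was not tested.

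Few gene body sites had an SMC-3 peak in SMC-3 depletion, which is the check on the depleted protein. An SMC-3 peak was left at 45 of 826 (5.45%, exact 95% interval 4.00% to 7.22%), close to the 4.89% of promoter and 5.55% of distal intergenic sites. These were mostly the tallest sites: with quartiles of control score set over the 3 site classes together, 40 of 192 sites in the top quartile (score 498 and above) kept a peak, against 1 of 268 in the lowest. The 5 highest-scoring sites that kept one lay in nep-25, W05B2.7, pals-26, klp-6 and frm-7.

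The loader was still called at most gene body sites when SMC-3 was depleted. PQN-85 was called at 630 of 826 in JK05 (76.3%, interval 73.2% to 79.1%), against 82.6% of promoter and 76.8% of distal intergenic sites. The authors' PQN-85 score in the control sorted them: 34.8% of the lowest quartile of members (scores up to 174) and 98.6% of the highest (520 and above) had a PQN-85 peak in JK05. Where it was called, its summit was within 100 bp of the control summit at 90.3% of sites. Among sites that lacked a PQN-85 peak in JK05 the highest SMC-3 scores were 1016 in F33G12.3, 912 in cat-1 (the vesicular monoamine transporter), 912 in Y54G2A.27, 895 in C03B1.2 and 855 in F46H5.3. Their control PQN-85 scores ran from 157 to 350, on both sides of the median of 303.5 over all gene body sites.

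In WAPL-1 depletion SMC-3 was called at a smaller share of gene body than promoter sites, while the loader was still called at most of both. An SMC-3 peak of the JK06 combined list overlapped 446 of 826 gene body sites (54%, interval 50.5% to 57.4%), 1220 of 1371 promoter sites (89%, 87.2% to 90.6%) and 963 of 1369 distal intergenic sites (70.3%, 67.8% to 72.8%). PQN-85 was called in JK06 at 690 gene body sites (83.5%, 80.8% to 86%), against 89.4% of promoter and 89.8% of distal intergenic sites. At 288 of the 380 gene body sites with no SMC-3 peak the PQN-85 peak was present (75.8%). For 148 of those 380 (38.9%), library 3 or library 4 of JK06 did have an SMC-3 peak.

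**Figure D3:**
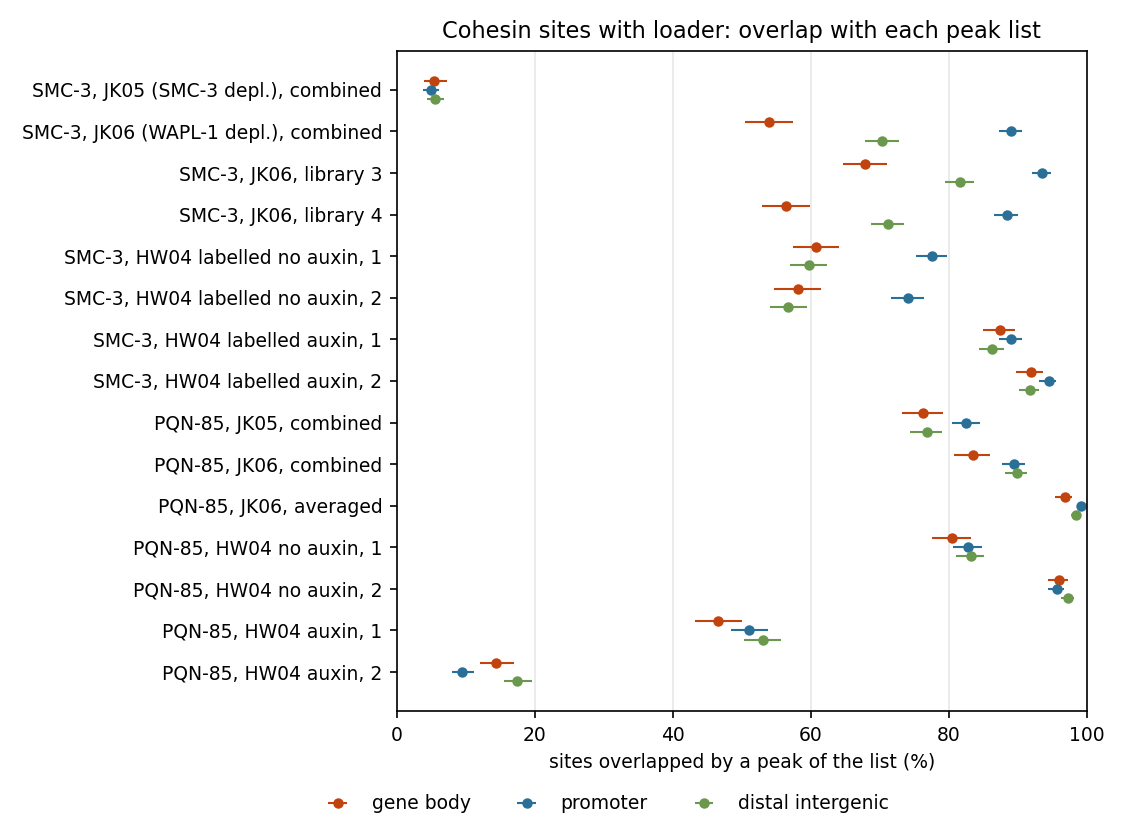
Share of gene body (red), promoter (blue) and distal intergenic (green) cohesin sites overlapped by at least 1 bp of a peak in each list, with exact 95% intervals over sites. The classes are farthest apart for SMC-3 in JK06 (54%, 89% and 70.3% in the combined list) and nearly coincide for SMC-3 in HW04 labelled auxin (no auxin by peak name).

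The libraries taken singly showed the same order in JK06. Library 3 had SMC-3 at 67.9% of gene body, 93.5% of promoter and 81.7% of distal intergenic sites, and library 4 at 56.4%, 88.4% and 71.1%. In HW04 labelled auxin (no auxin by peak name) the gene body shares were 87.4% and 91.9% and the promoter shares 89% and 94.5%. In HW04 labelled no auxin (auxin by peak name) they were 60.8% and 58.1%, against 77.6% and 74.0%. Over these 6 libraries the gene body share was 15.7 percentage points below the promoter share (lower in 6 of 6, exact two-sided sign-flip permutation p = 0.0312, the smallest 6 libraries allow). Counting only peaks with a score of at least 100 in those lists, it was −25.2 points with the same exact p. That p holds for the 6 libraries together, which span strains and conditions.

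In the JK06 libraries the gene body share was below the distal intergenic share, and in the HW04 libraries it was close to that share. The gene body minus distal intergenic difference was −13.7 and −14.7 percentage points in the JK06 libraries and 1.10, 1.35, 1.14 and 0.143 points in the HW04 libraries. The mean difference was −14.2 ± 0.695 (SD, n = 2) in JK06 and 0.934 ± 0.539 (SD, n = 4) in HW04, with no overlap (exact two-sided permutation p = 0.0667, the smallest that 2 against 4 libraries allow). Over all 6 libraries it was −4.12 points (exact two-sided sign-flip permutation p = 0.5), and −2.20 without JK06 library 3 or −2.002 without library 4 (exact p = 1 for each). The same comparison for promoter sites gave −28.8 ± 4.52 (n = 2) in JK06 and −9.22 ± 8.28 (n = 4) in HW04 (exact two-sided permutation p = 0.133). Changing the HW04 SMC-3 names from label to peak name leaves these values as they are, since all 4 libraries enter as 1 group.

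Control signal went along with what stayed. The gene body sites called in WAPL-1 depletion had a median control SMC-3 score of 408, and those not called 142. Gene body sites were nonetheless below the other classes at matched control scores. In the lowest quartile (scores up to 160), 17.9% of gene body sites had an SMC-3 peak in JK06 (48 of 268), against 58.6% of promoter and 37.9% of distal intergenic sites. In the second quartile (161 to 283) the shares were 42.3%, 87.5% and 66.3%, and in the third 79.1%, 98.3% and 85.9%. In the top quartile they converged at 96.4%, 98.98% and 99.4%. In the lowest quartile the HW04 libraries labelled auxin (no auxin by peak name) had SMC-3 at 70.9% and 81.3% of gene body sites, against 65.7% and 79.9% of promoter sites. Those labelled no auxin (auxin by peak name) had it at 26.5% and 23.5%, against 44.4% and 33.5%. The quartiles were added after the data were seen.

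**Figure D4:**
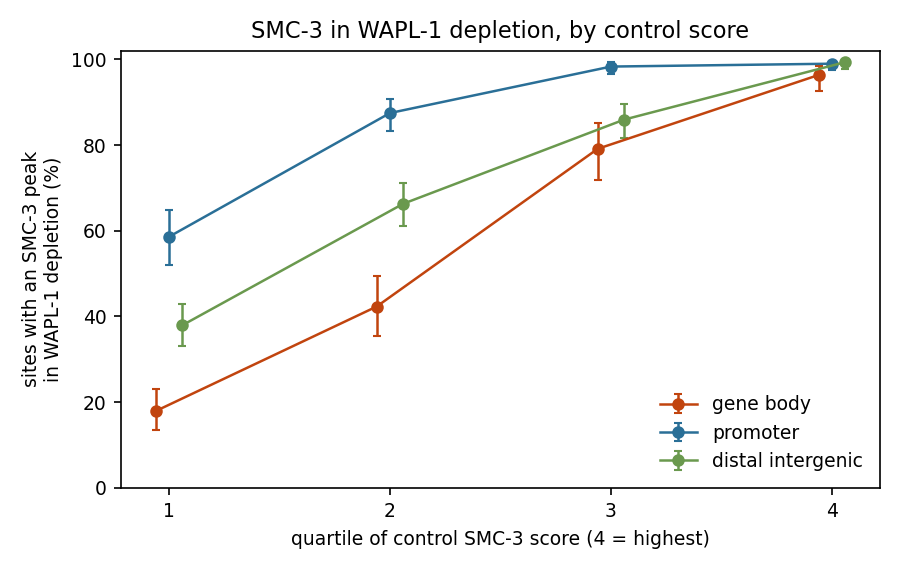
Share of sites with an SMC-3 peak in the WAPL-1 depletion combined list, by quartile of control SMC-3 score and site class, with exact 95% intervals over sites. Gene body sites lie lowest in quartiles 1 to 3 (17.9%, 42.3% and 79.1%), and the classes converge in quartile 4.

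Position inside the gene also went along with it. Among sites with loader inside genes, SMC-3 was called in WAPL-1 depletion at 81.3% of those within 250 bp of a 5′ end, 79.4% at 250 to 500 bp, 67.3% at 500 to 1000 bp, 61.3% at 1000 to 2000 bp, 52.2% at 2000 to 5000 bp and 44% beyond that. The distance is to the nearest 5′ end of any gene, and sites within 500 bp are promoter sites, not gene body sites. PQN-85 in JK06 stayed between 79.4% and 86.7% over the same distances. Counted over site-gene pairs, shares were high near the 3′ end. An SMC-3 peak was called at 83.3% of pairs within 500 bp of it and at 79.1% of those 500 to 1000 bp from it. The share was 61.5% at 1000 to 2000 bp, 63.6% at 2000 to 5000 bp and 40% over 5000 bp away. Over the 5 equal stretches of the host gene the share of pairs was higher towards the 3′ end, from 43.3% in the first through 52.05%, 52.06% and 59.8% to 68.7% in the last. Only longer genes have bases over 5000 bp from their 3′ end, and the rule takes most of the first stretch away from short genes. The share was lower in longer hosts, as given below, so position and host length are not separated here. The control SMC-3 score moved with position too. Its median was 272 within 250 bp of a 5′ end, 295 at 500 to 1000 bp and 212 beyond 5000 bp. By distance to the host 3′ end it was 336.5 up to 1000 bp and 208 over 5000 bp away. At matched scores of 161 to 283, SMC-3 was called in WAPL-1 depletion at 70% of sites up to 1000 bp from the host 3′ end. It was called at 65.4% at 1000 to 5000 bp and at 19.6% over 5000 bp away. The same order held in the lowest quartile (40%, 19.8% and 13.9%) and quartile 3 (100%, 88.9% and 63.4%). It did not hold in the top quartile (96.6%, 98.9% and 93.4%). The part of score in these shares was not tested.

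The share also went down with host length. Of sites in hosts under 5 kb, 74.3% had an SMC-3 peak in WAPL-1 depletion (139 of 187), against 57.1% at 5 to 10 kb and 41.5% in hosts of 10 kb or longer (154 of 371). The median control score was 339 in the shortest group and 208 in the longest, so the score moved with length. At matched scores of 161 to 283, the shares were 65.7% (23 of 35), 52.8% (38 of 72) and 26.7% (27 of 101). In the other score quartiles they were 26.7%, 23.3% and 11.3% (lowest), 93.6%, 81.4% and 67.6% (quartile 3) and 100%, 93.7% and 95.7% (top), the last with no steady order. PQN-85 in JK06 showed no such order, with 81.8%, 83.6% and 84.4%.

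By library, SMC-3 went from 81.8% of sites in short hosts to 59.0% in long hosts for JK06 library 3 and from 72.2% to 47.2% for library 4. HW04 labelled auxin, whose peak names say no auxin, stayed level, at 88.8% and 86.8% for library 1 and at 90.9% and 91.1% for library 2. HW04 labelled no auxin, whose peak names say auxin, also went down, from 74.3% to 53.9% and from 68.4% to 50.7%. The length classes were chosen after values were seen and were not tested.

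**Figure D5:**
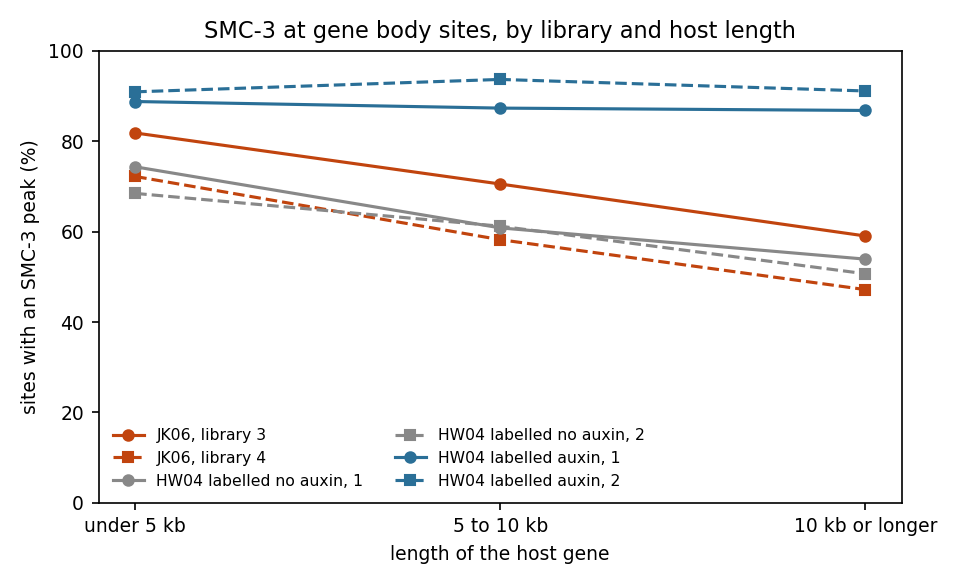
Share of gene body sites with an SMC-3 peak in each single-library list, by length of the host gene (187, 268 and 371 sites from left to right). Both JK06 libraries and both HW04 libraries labelled no auxin (auxin by peak name) decline with length, and both HW04 libraries labelled auxin (no auxin by peak name) stay between 86.8% and 93.7%.

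Single genes showed the same mixture. Among the 144 hosts with 2 or more sites, 77 had some sites with and some without an SMC-3 peak in WAPL-1 depletion, 41 had none with it and 26 had all. In daf-16, SMC-3 remained at 1 of 7 sites, the one with the highest PQN-85 score (1145, 19537 bp from the 5′ end), and was not called at the site with the highest SMC-3 score (639). In mbk-2 it remained at 2 of 7, in fkh-9 at 1 of 5, and in kin-1 and fkh-7 at 4 of 6 each. In fkh-9 all 5 sites kept PQN-85 in JK06.

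The highest-scoring sites without SMC-3 in the combined WAPL-1 depletion list lay in Y54G2A.26 (677, chromosome IV, 2992951 to 2993897), daf-16 (639, chromosome I, 10756321 to 10757701), T28D6.5 (629, chromosome III, 11335757 to 11336512), gei-8 (585, chromosome III, 8124230 to 8126080) and mix-1 (532, chromosome II, 10835367 to 10836236). The gei-8 gene encodes an NCoR-type corepressor, and mix-1 an SMC subunit of condensin and the dosage compensation complex. In single JK06 libraries the gei-8 site did have an SMC-3 peak in both library 3 and library 4, and the T28D6.5 and mix-1 sites in library 4, while those in Y54G2A.26 and daf-16 had one in neither. All 5 kept PQN-85 in both JK05 and JK06. Where SMC-3 was still called, its summit stayed in place: 91.5% of the 446 JK06 summits lay within 100 bp of the control summit.

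With the SMC-3 list of JK06 and the PQN-85 lists of JK05 and JK06 side by side, 354 sites (42.9%) had SMC-3 in JK06 and PQN-85 in both depletions. Another 230 (27.8%) had PQN-85 in both but no SMC-3 in JK06, and 66 (7.99%) had none of these peaks. Over 14 SMC-3 and PQN-85 lists (all but the control lists and SMC-3 in JK05, with combined, averaged and single lists of JK06 sharing libraries), the median member was called in 10, and 63 members were called in every one. The highest-scoring of those lay in nep-25, frm-7, pqn-41, mef-2 and mnk-1 (a MAP kinase-interacting kinase).

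In HW04, PQN-85 was called at fewer gene body sites with auxin than without. The shares without auxin were 80.5% and 96.0% (88.3% ± 11, SD, n = 2), and with auxin 46.6% and 14.4% (30.5% ± 22.8, SD, n = 2). Both auxin libraries were below both others, a difference of −57.7 percentage points, but 2 against 2 libraries cannot go below an exact permutation p of 0.333, which is the two-sided value here. Replicate 1 alone gave −33.9 points and replicate 2 alone −81.6. The shortest of these lists held 1296 peaks and the longest 12367, so the number of calls moved with the shares. In both conditions the loader was called more often at sites with a high control PQN-85 score. With auxin it was called at 88.4% and 42.5% of the top quartile, against 15% and 1.45% of the lowest. Without auxin the shares were 99.0% and 99.5% of the top quartile, against 56.5% and 90.8% of the lowest.

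For HW04 PQN-85, gene body sites were near promoter sites and slightly below distal intergenic sites, neither difference passing its test. The gene body share differed from the promoter share by −2.28, 0.381, −4.45 and 4.92 percentage points in the 4 libraries, a mean of −0.355 (exact two-sided sign-flip permutation p = 1). It was below the distal intergenic share in 4 of 4, by 3.36 points on average (exact two-sided sign-flip permutation p = 0.125, the smallest 4 libraries allow).

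SMC-3 at gene body sites differed between the HW04 conditions in a direction that depends on which name is right. By label, SMC-3 was called at 59.4% ± 1.88 without auxin and at 89.6% ± 3.17 with it (SD, n = 2 each), a difference of 30.2 points (exact two-sided permutation p = 0.333, the smallest possible). By peak name it is −30.2 points, with the same p. The lower pair of libraries also had the shorter lists, 4305 and 4091 peaks against 7457 and 8196.

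H4K20me1, the histone mark that the dosage compensation complex enriches on the X chromosome, covered nearly all X-linked gene body sites in both conditions. Of the 138 sites on X, 99.3% overlapped an H4K20me1 peak in both libraries without auxin, and 98.6% and 99.3% did with auxin (difference −0.362 points, exact two-sided permutation p = 1). By summit, 79% to 85.5% of the X sites lay inside a peak, while peaks covered 69.5% to 71.8% of the X bases that could hold a site. WAPL-1 depletion gave an SMC-3 peak at 77 of the X sites (55.8%), beside 54% of all sites.

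On autosomes the mark was rarer, but commoner at gene body sites than at the other classes. It overlapped 17.2%, 18.3%, 17% and 24.9% of the 688 autosomal gene body sites in the 4 libraries, against 5.10% to 6.89% of autosomal promoter sites. The mean difference was 13.2 points (SD 3.24, n = 4, higher in 4 of 4, exact two-sided sign-flip permutation p = 0.125, the smallest possible), and against distal intergenic sites it was 10.7 points (p = 0.125 by the same exact test). Gene body sites are wider than promoter sites (666 bp against 533 bp) and about as wide as distal intergenic sites (659 bp), and the part of width in these differences was not tested. By summit, 4.94% to 6.69% of the autosomal gene body sites lay inside a peak, against 3.20% to 4.67% of available autosomal bases covered. The 88 autosomal sites called in all 4 lists sat in longer hosts (median 13709 bp) than the 495 called in none (8633 bp), and 35.2% against 58.6% of them had SMC-3 in WAPL-1 depletion. Their hosts' median RNA level was 281 mean normalized counts per kb of gene span, against 107.

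After 4 h of auxin few host genes were called changed in RNA, a share near that of all genes. The tables for SMC-3 and WAPL-1 depletion share their 2 CA1200 libraries. For SMC-3 depletion the authors' deposited table called 3 of 587 tested hosts at a DESeq2 adjusted p under 0.05 (0.511%), against 105 of 15316 genes (0.686%). By direction, that deposited table from the authors called 1 host higher, against 34 genes (0.222%), and 2 hosts lower, against 71 genes (0.464%). In the authors' deposited table the median log2 fold change of hosts was −0.04 with a median SE of 0.30, and that of all tested genes was −0.01. At an unadjusted p under 0.05 the authors' deposited table held 28 hosts (4.77%), against 6.89% of all genes.

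The 3 called hosts were unc-119, Y43F8B.2 and C07A9.9. The authors' deposited table gives unc-119, a gene needed in the nervous system and widely used as a rescue marker in worm transgenes, a log2 fold change of 2.46 (SE 0.32, DESeq2 adjusted p 1.11e-10). It held 2 sites of modest score (206 and 195), neither with SMC-3 in WAPL-1 depletion. Y43F8B.2 fell by 1.72 on the log2 scale in the authors' deposited table (SE 0.40, DESeq2 adjusted p 0.006), and it held 2 sites, both called in every one of the 14 lists. C07A9.9 fell by 1.35 in the authors' deposited table (SE 0.36, DESeq2 adjusted p 0.0263), and SMC-3 remained at 1 of its 2 sites in WAPL-1 depletion.

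Hosts of the tallest sites and those with most sites were not called. For SMC-3 depletion, hosts of the 10 top sites ran in the authors' deposited table from −0.81 (W05B2.7) to 0.77 (nep-25) on the log2 scale, with DESeq2 adjusted p values of 0.9997. The 8 genes with most sites ran from −0.33 (fkh-7) to 0.05 (mbk-2) in the authors' deposited table. Among the hosts in the gene lists above the authors' deposited table called none. Of all tested genes in those lists, hosts or not, the authors' deposited table called 7 of 138 collagen genes (1 higher, 6 lower), 1 of 230 nuclear hormone receptor genes, 1 of 61 axon genes and 1 of 43 sarcomere genes (each lower) and none in the other lists, beside 0.686% of all genes. Of the genes for cohesin, its loader and release factors, none was a host or called: the authors' deposited table gives smc-3 −0.23 (SE 0.26), scc-2, which encodes PQN-85, −0.06 (SE 0.25) and wapl-1 −0.07 (SE 0.27). Degron depletion acts on the protein, so these RNA values do not check it.

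For WAPL-1 depletion, the authors' deposited table called 0 of 596 tested hosts, and 0% of 18308 genes, by DESeq2 at an adjusted p under 0.05. At an unadjusted p under 0.05 the authors' deposited table held 0 hosts, against 73 genes (0.399%). That is fewer genes than this threshold gives with no change at all, so these deposited p-values ran high. A count of 0 hosts therefore does not show that host RNA was unchanged. The median log2 fold change in the authors' deposited table was −0.03 for hosts and 0.05 for all genes, and the smallest unadjusted p among hosts was 0.108, for plr-1. The median SE of hosts there was 0.46 on the log2 scale, and changes above that size also missed the threshold: plr-1 stood at −0.92 with an unadjusted p of 0.108 and nep-25 at 1.75 with 0.293 in the authors' deposited table. In the same deposited table from the authors, the median was −0.07 for 195 hosts whose sites all lacked SMC-3 in JK06 and −0.02 for 395 hosts with a site that had it. These groups do not cover all 596 tested hosts.

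At the edges of the rule, the nearest sites inside the distance limit lay 503 bp (nhr-21, score 139) and 507 bp (unc-44, 1724) from a 5′ end, and the nearest outside 497 bp (let-268, 1016) and 496 bp (cogc-6, 88). The widest member was 1962 bp (akap-1, score 151) and the next 1923 bp (C07A9.9, 495), while the narrowest excluded for width were 2035 bp (let-526, 414) and 2071 bp (wht-7, 137).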

How the data were processed

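ChIP-seq peak lists (21) and RNA comparison tables (2) were used. Hi-C and the other ChIP and input libraries were not analysed here. The submitters' processing notes name Bowtie2 2.4.2, MACS2 2.1.1, MACS3, HISAT2 2.2.1, HTSeq 0.13.5 and DESeq2 1.30.0, without roles or settings. Each deposited peak carries the authors' score (10 times its −log10 q), the fold enrichment ratio at the summit, and −log10 p and −log10 q. Per the file headers, each RNA table of the authors gives the log2 fold change over CA1200, its log2 standard error, a Wald score, p-value, adjusted p-value and mean normalized count. No reads or counts per library were in the files, so depth is unknown and intervals cover counting error only.

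Members, their distances and overlaps (at least 1 bp) were computed in Python 3.11.15 with scipy 1.17.1, with code tested on simulated intervals. Shares have exact Clopper-Pearson 95% intervals. Libraries were compared by exact two-sided permutation (2 against 2, or sign flips of class differences). The labels state ce10 for 38 of 83 samples and no build for the RNA tables' gene coordinates, whose starts differ from RefSeq WBcel235 by a median of up to −101 bp (end of chromosome III); peaks and genes were treated as sharing a build. Symbols came from RefSeq by sequence name (17777 of 18128 genes matched). Some JK06 lists are filed under another sample, and the library codes in their peak names were used to place them. Members, gene lists and tests were chosen with earlier results of these data known. Named sites are the 10 highest-scoring, the 5 highest-scoring per loss or retention class, the 8 genes with most sites, called hosts, the highest-scoring hosts of each list, cohesin genes and sites nearest each limit. The score quartiles, host length classes, the JK06 against HW04 test and the H4K20me1 class comparison were added after values were seen.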

Additional observations from a re-analysis of the deposited data

Results flagged for a closer look

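The difference between gene body and distal intergenic sites in SMC-3 share was unlike in 2 strains. It was negative in both JK06 libraries and small in all 4 HW04 libraries, from 0.143 to 1.35 points. The JK06 mean lay 15.2 percentage points lower (−15.2). The exact two-sided permutation p was 0.0667, the smallest that 2 against 4 libraries allow. The comparison was chosen after the values were seen. JK06 and HW04 differ in strain and, by label, in auxin exposure of 2 of the HW04 libraries, which cannot be told apart from WAPL-1 depletion here.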

How the results depend on the processing

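Of 158 recomputed values, 124 were scored as unchanged, mostly for keeping direction and side of the threshold or staying within the main interval. Host counts of 2 and 4 in place of 3 in SMC-3 depletion were scored so too. The HW04 auxin contrasts and PQN-85 class differences have too few libraries to cross the threshold. In their tests only a change of direction could alter the score. Host counts in WAPL-1 depletion were 0 at every setting. The 124 therefore does not measure how robust the results are. With at least 50% of a member covered, SMC-3 in WAPL-1 depletion fell on 49.5% of members, PQN-85 in WAPL-1 depletion on 75.7% and PQN-85 in SMC-3 depletion on 69.98%. Library 3 alone gave 67.9% for SMC-3 in WAPL-1 depletion, and the list called on averaged libraries 96.9% for PQN-85. For PQN-85 in SMC-3 depletion, scores of at least 100 gave 72.8%, and a loader peak over at least 50% of the site 79.5%.

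The gene body minus promoter difference in SMC-3 share ran from −18.6 to −12.5 percentage points with each library left out, with an exact p of 0.0625, the smallest 5 libraries allow. It was −25.2 with peaks scoring at least 100 and −21.9 with at least 50% of the site covered (exact p = 0.0312 for both). Against distal intergenic sites, −4.12 went to −2.20 without JK06 library 3 and to −2.002 without library 4. Within control score quartiles 1 to 4, added after the data were seen, the gene body minus promoter difference was −14.8, −16.4, −4.67 and −1.11 (exact sign-flip permutation p from 0.125 to 0.25). The difference from distal intergenic sites turned to 0.278 in quartile 3. The PQN-85 gene body minus promoter difference, −0.355, changed sign with a 250 bp distance limit (0.5995), no width limit (0.694) and the loader over at least 50% of the site (0.206), and in quartiles 1 to 3 (1.83, 3.26 and 1.09). With libraries left out it ran from −2.11 to 1.01, turning positive without library 1 of either condition.

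In HW04, with the replicate numbers as a replicate block, the sign-flip values were −57.7 (PQN-85), 30.2 (SMC-3) and −0.362 (H4K20me1 on X) points, with exact p of 0.5, 0.5 and 1. The labels do not say that a number pairs samples. The smallest p the block allows is 0.5, so it could move no call. Leaving out a replicate number gave −81.6 to −33.9, 26.6 to 33.8, and −0.725 to 0. Naming the SMC-3 lists by their peaks gave −30.2. At an unadjusted p under 0.05, 28 hosts were counted in SMC-3 depletion in place of 3. The causes of these changes were not tested. Depth is unknown and sets which faint sites are called.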
